A study of Mus musculus with 12 samples.

Results

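The insulin-like growth factor (IGF) ligands Igf1 and Igf2, the receptor Igf2r and 6 IGF binding proteins (Igfbp2, Igfbp3, Igfbp4, Igfbp5, Igfbp6 and Igfbp7) were followed in 3T3-L1 cells, 9 genes of the 55487 in the expression table. They were chosen by family name, with earlier results of these data known, and with 1 table row per symbol. Igfbp3 was also singled out for its presence in adipocytes with Fto knocked down, so its values are described below with no test. 3T3-L1 is a mouse fibroblast line that turns into fat-storing cells after hormonal induction. All cells carried a lentiviral hairpin, either a scrambled control (shScram) or one against Fto (shFTO), an RNA demethylase that removes m6A, and were selected with puromycin. Cells of both lines were taken as preadipocytes (Pre), at mitotic clonal expansion (MCE), the round of cell division that follows the MDI induction cocktail, and at the differentiation stage (Diff), reached in insulin medium. The MDI cocktail held IBMX, dexamethasone and insulin and was given after confluence, so insulin was present both during induction and after it. Each of the 6 groups held 2 libraries. Cells treated with rhein were left out.

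As a model, these are cells of 1 immortal line, and the sources used here do not say which of the hairpins against Fto the sequenced cells carried. Nothing states that replicates were separate cultures, so p-values measure only the spread between these samples, which may be technical. The title of shScram_Diff replicate 1 names the control and its treatment entry names the knockdown. It was grouped by its title. Fto lay at 52.7 to 73.5 TPM in the 6 shScram libraries, that library included, and at 5.51 to 7.47 TPM in the 6 shFTO libraries. TPM is a transcript share corrected for gene length and set to one total per library, so levels of different genes can be compared while the sequencing depth is unknown. In shScram_Pre the libraries correlated at 0.939 across genes, against 0.990 to 0.993 in the other groups. The results of members that rest on shScram_Pre are given with and without its replicate 1, which was not shown to be the faulty one. A group left with 1 library adds nothing to the spread that the fit shares over groups. Without either shScram_Pre library, many more genes were called in comparisons that do not use that group. Calls gained without a shScram_Pre library are not taken as support. Summed fibroblast markers lay at 5840 to 9323 TPM in all libraries, but single markers differed between the lines in opposite directions. Vim was at 2094 to 2411 TPM in shFTO and 3291 to 4155 TPM in shScram libraries. Col3a1 was at 2647 to 3825 TPM in shFTO_MCE and shFTO_Diff, and at 746.6 to 1863 TPM in shScram_MCE and shScram_Diff. The defining adipocyte gene Adipoq was at 72.4 and 77.2 TPM in shScram_Diff and at 3.66 and 6.05 TPM in shFTO_Diff, so the shFTO libraries labelled as mature adipocytes held little of it.

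IGF1 and IGF2 are secreted growth factors that signal through the IGF1 receptor and, in part, the insulin receptor, which lead to the PI3K and AKT pathway. IGF2R, also the cation-independent mannose 6-phosphate receptor, takes IGF2 into the cell for breakdown. The binding proteins hold the ligands outside the cell and can restrain or prolong their action, and proteases such as pregnancy-associated plasma protein A (PAPP-A, gene Pappa) cut some of them to free the ligand. In cultured preadipocytes, IGF1 and insulin at high dose are known to drive clonal expansion and fat cell formation.

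On GRCm38, by GENCODE release M21, the ligand genes were Igf1 (ENSMUSG00000020053, chr10:87858265-87937042, plus strand) and Igf2 (ENSMUSG00000048583, chr7:142650766-142666816, minus strand). Igf2r (ENSMUSG00000023830) lay at chr17:12682406-12769664 on the minus strand. Igfbp2 (ENSMUSG00000039323, chr1:72824503-72852474, plus strand) and Igfbp5 (ENSMUSG00000026185, chr1:72857932-72874884, minus strand) were neighbours. Igfbp3 (ENSMUSG00000020427, chr11:7206086-7213923, minus strand) and Igfbp4 (ENSMUSG00000017493, chr11:99041244-99054392, plus strand) shared a chromosome. Igfbp6 (ENSMUSG00000023046) lay at chr15:102144362-102149511 on the plus strand and Igfbp7 (ENSMUSG00000036256) at chr5:77349240-77408041 on the minus strand. The sources used here do not state whether the counting used strand. Values of Igf1 (overlapped by Igf1os), Igf2 (Gm49394, Mir483 and Igf2os), Igf2r (Airn) and Igfbp7 (Polr2b and Gm34648) are therefore uncertain to the extent that reads of the overlapping gene were counted in them. Of these overlapping genes, Polr2b lay at 41.3 to 93.3 TPM and Airn at 11.2 to 70.3 TPM.

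All 9 members matched RefSeq promoter windows (GRCm38.p6, 250 bases before to 50 after a start site), 13 windows in all. Searched on both strands, TATAAA was found in 14.2% of 27025 promoters, CCAAT in 37.9% and GGGCGG, the GC box, in 35.9%. Each motif was counted on its own, so a promoter can enter several of these shares. Short stretches of 30 bases around a match are shown for the pair of most abundant binding proteins, Igfbp4 and Igfbp7, and for Igfbp6 and Igf2r, whose step to the MCE stage differed between the lines. The motif is in capitals. Positions count from the RefSeq start site, which need not be the GENCODE gene start given above. For Igfbp6 and Igf2r the RefSeq start lies upstream of that gene start, and for Igfbp7 a few bases upstream. Igfbp4 (chr11:99041204-99041233, plus strand) held a TATA box starting at -28 from the start site, Igfbp7 (chr5:77408072-77408101, minus strand) a GC box at -44, Igfbp6 (chr15:102144124-102144153, plus strand) a CCAAT box at -50 and Igf2r (chr17:12769714-12769743, minus strand) adjacent GC boxes at -31 and -25.
Igfbp4: ccagggggccggTATAAAgtcccgggagcc
Igfbp7: ccacggagcaccGGGCGGggcagcggcttt
Igfbp6: ccgtcccccaccCCAATattctcacactat
Igf2r: gaggcgGGGCGGGGGCGGgccgactcaggt
The windows of Igfbp3 and Igfbp5 held none of these letters, which says nothing of the factors that act there. No reading of this table bears on binding at these sites.

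The members spanned a wide range of levels, and 2 binding proteins made up most of their RNA. Igfbp7 had the highest mean TPM of the 9 genes in preadipocytes and at the MCE stage of both lines, and Igfbp4 had the highest at the differentiation stage of both. In shScram_Pre the order was Igfbp7, Igf2r, Igfbp4, Igfbp6, Igf1, Igfbp5, Igfbp3 and then Igfbp2 and Igf2, both listed at 0. In shFTO_Diff it was Igfbp4, Igfbp7, Igf2r, Igfbp5, Igf2, Igfbp6, Igfbp3, Igf1 and Igfbp2. Neighbours whose libraries overlapped were Igf1 and Igfbp5 in shScram_Pre, Igfbp3 and Igf2 in shFTO_Pre, and Igf2 and Igfbp6 in shFTO_Diff. Among genes near 0, Igfbp3 and Igf2 in shScram_MCE overlapped, and so did Igf2, Igfbp2 and Igfbp3 in shScram_Diff.

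**Figure D1:**
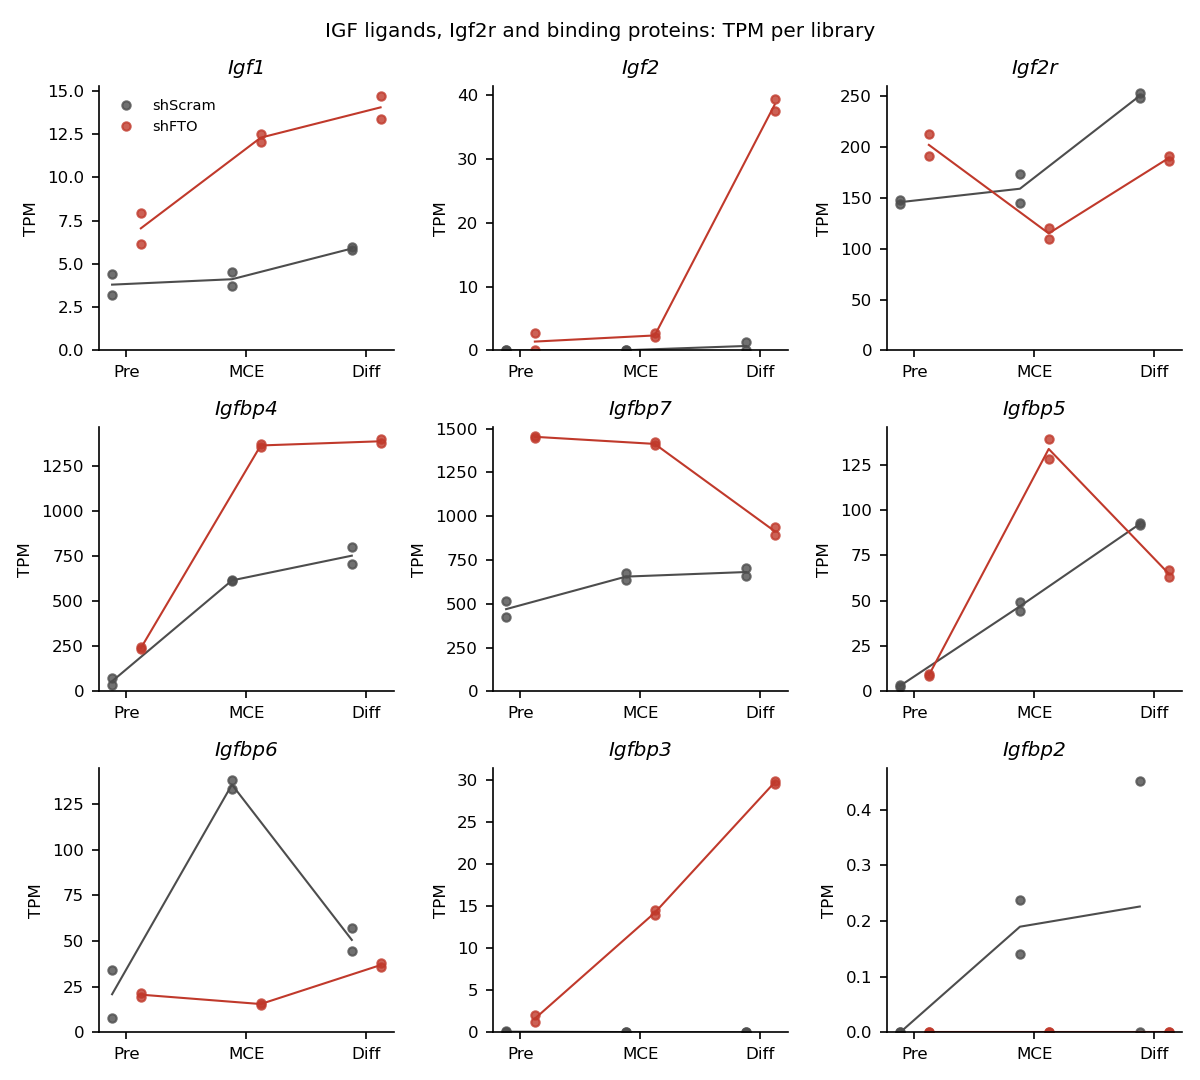
TPM of each of the 9 members by stage on linear axes that differ between genes, with points for single libraries and lines joining the means of 2 libraries in shScram (grey) and shFTO (red). Igf2 is high only in shFTO_Diff, and Igfbp3 rises over the stages in the shFTO line. Igfbp6 is low in that line at the MCE stage, and the lines of Igfbp5 cross between the MCE and differentiation stages.

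For the tests, 15968 genes with at least 1 TPM in at least 2 of the 12 libraries were compared by limma, two-sided, on log2(TPM + 1), with Benjamini-Hochberg adjustment over all of them. Differences are given on that scale, with the standard error (SE), and a gene counted as called when its adjusted p was under 0.05. The scale understates changes of genes with low TPM. Of the 9 members, 8 passed this minimum and Igfbp2 did not. Igf2 passed it through shFTO libraries, and shScram_Diff replicate 1 was the only control library where it reached 1 TPM. Its tests between the lines are thus description rather than support. Without Igfbp3, 7 members were tested. The comparison of the lines asks what the loss of Fto went with at each stage.

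In preadipocytes 5 of the 7 tested members were higher in shFTO than in shScram cells and none lower by limma's adjusted p, where 28.2% of all genes were called and 15.9% were higher in shFTO. At the MCE stage 4 members were higher and 2 lower, against 17.8% of all genes called, 10.5% higher and 7.26% lower. At the differentiation stage 3 members were higher and 2 lower, against 21.2% of all genes, 11.9% higher and 9.31% lower. Igf2 was 1 of these 3, and its tests between the lines are description only. The median difference over the 7 members was 1.00, 1.15 and 0.42 on the log2 scale at the successive stages. Over all genes tested it was 0.08, 0.05 and 0.03. The preadipocyte median of the members was the value of Igf2. Since the members were chosen with earlier results of these data known, their counts and medians beside those of all genes are description only. In bulk RNA such as this, fewer cells expressing a gene and less of its RNA per cell cannot be told apart. When only the 4 preadipocyte libraries were fitted, none of the 5 members kept its call in preadipocytes (adjusted p of 0.148 or more), nor did any of the 15968 genes, of which 2790 had an unadjusted p under 0.05. The stage comparisons share libraries with the comparisons between the lines.

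Without shScram_Diff replicate 1, the library whose labels disagree, the limma difference at the differentiation stage was 1.11 for Igf1 and 5.27 for Igf2. That of Igf2 is description only. The values of Igf2r (-0.39, adjusted p = 0.181), Igfbp5 (-0.51, adjusted p = 0.113) and Igfbp7 (0.47, adjusted p = 0.130) kept their direction and lost their calls. The late-step difference of Igfbp5 between the lines kept its call without it (adjusted p = 0.0147).

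**Figure D2:**
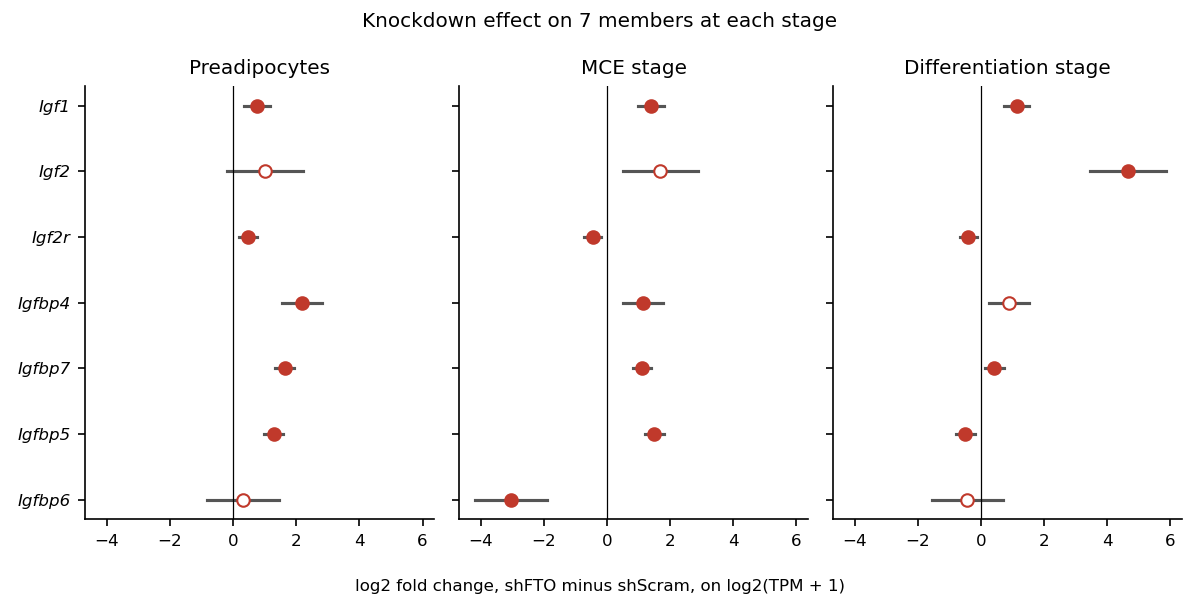
Difference of shFTO from shScram on the log2(TPM + 1) scale for the 7 tested members at each stage, with bars for the 95% confidence interval of the limma fit and filled points for an adjusted p under 0.05. Igf1 lies above 0 at all stages, Igf2r and Igfbp5 move from above to below 0, and Igf2 is farthest from 0 at the differentiation stage.

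Of the ligands, Igf1 was higher in the shFTO line at each stage. It was at 4.42 and 3.19 TPM in shScram_Pre and at 6.17 and 7.95 TPM in shFTO_Pre. At the MCE stage the shScram libraries held 4.53 and 3.70 TPM and the shFTO libraries 12.5 and 12.1 TPM. At the differentiation stage they held 5.82 and 5.97 TPM and 13.4 and 14.7 TPM. The lines did not overlap at any stage. The same held for 60.5% of all tested genes in preadipocytes, 71.4% at the MCE stage and 72.9% later. These shares also stand beside each later statement that libraries of the lines did not overlap. The ratio of the shFTO to the shScram mean was 1.86, 2.99 and 2.39. By limma the difference was 0.75 (SE 0.18, adjusted p = 0.0181) in preadipocytes, 1.38 (SE 0.18, adjusted p = 0.00106) at the MCE stage and, in differentiated cells, 1.13 (SE 0.18, adjusted p = 0.00251). The preadipocyte call was lost without shFTO_Pre replicate 2 (0.59, adjusted p = 0.107) and with quantile normalization (0.59, adjusted p = 0.0580), and the value was 0.94 without shScram_Pre replicate 1 (adjusted p = 0.00373) and 1.27 after a GC correction (adjusted p = 0.000112).

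Within the shFTO line Igf1 rose from preadipocytes to the MCE stage by 0.73 (SE 0.18, limma adjusted p = 0.0150), a call lost without shFTO_Pre replicate 1 (adjusted p = 0.106), shFTO_MCE replicate 1 (adjusted p = 0.0893) or shFTO_MCE replicate 2 (adjusted p = 0.0732). In shScram the same step gave 0.10 (SE 0.18, adjusted p = 0.689), 0.28 without shScram_Pre replicate 1 (adjusted p = 0.213) and, after a GC correction, 0.78 with an adjusted p of 0.000678, a call gained. The difference of these steps was 0.63 (SE 0.25, adjusted p = 0.190), 0.45 without shScram_Pre replicate 1 (adjusted p = 0.234), and passed the threshold only without shScram_Pre replicate 2 (0.82, adjusted p = 0.0122). From the MCE to the differentiation stage Igf1 gave 0.43 (adjusted p = 0.110) in shScram and 0.18 (adjusted p = 0.524) in shFTO. The shScram value passed without shScram_Pre replicate 1 (adjusted p = 0.0293) or 2 (adjusted p = 0.0281).

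Igf2, the fetal growth factor of an imprinted locus, was close to 0 in the control line and reached its highest level in shFTO_Diff. It was listed at 0 in both shScram_Pre libraries, at 0 and 0.0636 TPM in shScram_MCE, and at 1.36 and 0.0251 TPM in shScram_Diff. In the shFTO line it was at 2.69 and 0.0818 TPM before induction, 2.03 and 2.65 TPM in shFTO_MCE, and 37.5 and 39.4 TPM in shFTO_Diff. The lines did not overlap at any stage, although shFTO_Pre replicate 2 was close to the controls, and shScram_Diff replicate 1, the library with conflicting labels, was the highest control. By limma the difference between the lines was 4.66 (SE 0.53, adjusted p = 0.000405) at the differentiation stage. It was 1.00 (SE 0.53, adjusted p = 0.173) in preadipocytes and 1.69 (SE 0.53, adjusted p = 0.0590) at the MCE stage.

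Between the MCE and differentiation stages Igf2 rose in shFTO by 3.57 (SE 0.53, limma adjusted p = 0.00168), with a ratio of means of 16.4. With a pseudocount of 0.1 this step was 3.99 with an adjusted p of 0.0545. In shScram the step was 0.59 (SE 0.53, adjusted p = 0.450). The early steps were 0.04 (adjusted p = 0.957) in shScram and 0.74 (adjusted p = 0.348) in shFTO, and they differed by 0.69 (adjusted p = 0.575, and 0.617 without shScram_Pre replicate 1). The difference of the steps between the lines was 2.97 (SE 0.75, adjusted p = 0.0835) and passed the threshold only when a preadipocyte library was left out (adjusted p = 0.0200 to 0.0319) or only the libraries of these 4 groups were fitted (adjusted p = 0.00436). The preadipocyte effect passed without shFTO_Pre replicate 2, at 1.88 (adjusted p = 0.0364), and without shScram_Pre replicate 1 its adjusted p was 0.259. The MCE effect passed without any 1 of the 4 preadipocyte libraries (adjusted p = 0.0161 to 0.0222), with only the MCE libraries (adjusted p = 0.00397) and with median-ratio (adjusted p = 0.0453) or quantile scaling (adjusted p = 0.0372). Gm49394, a gene that overlaps Igf2 on the same strand, was at 8.65 and 8.68 TPM in shFTO_Diff and at 2.07 TPM or less in every other library, and Igf2os reached 0.720 TPM. Their part in the Igf2 values was not tested.

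The ligand mix thus differed at the end of the course. Igf2 made up 73.7% and 72.8% of the summed TPM of Igf1 and Igf2 in the shFTO_Diff libraries and 19.0% and 0.418% in the shScram_Diff libraries. In shFTO_MCE its share was 14.0% and 18.0%.

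Igf2r, the receptor that clears IGF2, differed in opposite directions before and after induction. It was at 143.9 and 147.3 TPM in shScram_Pre and at 190.9 and 212.8 TPM in shFTO_Pre. At the MCE stage it was at 173.3 and 144.3 TPM in shScram and at 120.2 and 109.7 TPM in shFTO. At the differentiation stage it was at 252.5 and 247.7 TPM in shScram and at 186.4 and 191.3 TPM in shFTO. The shFTO libraries were above the controls in preadipocytes and below them at both later stages, without overlap. By limma the difference was 0.47 (SE 0.12, adjusted p = 0.0252), then -0.46 (SE 0.12, adjusted p = 0.0330) and -0.40 (SE 0.12, adjusted p = 0.0465).

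From preadipocytes to the MCE stage Igf2r fell by 0.81 in shFTO (SE 0.12, limma adjusted p = 0.00135), while the shScram step was 0.12 (SE 0.12, adjusted p = 0.469). The difference between these steps was -0.92 (SE 0.17, adjusted p = 0.0208). From the MCE to the differentiation stage Igf2r rose by 0.71 (adjusted p = 0.00341) in shFTO and 0.66 (adjusted p = 0.00564) in shScram, and the difference of the steps was 0.05 (95% interval -0.34 to 0.45, adjusted p = 0.944). The antisense gene Airn, which overlaps Igf2r, was at 55.5 and 35.0 TPM in shScram_Pre and 26.0 and 27.3 TPM in shFTO_Pre, and at 70.3 and 69.0 TPM in shScram_Diff and 33.7 and 39.8 TPM in shFTO_Diff. Its part in the Igf2r values was not tested.

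The Igf2r calls between the lines were near the threshold. In preadipocytes the call was lost without shFTO_Pre replicate 1 (adjusted p = 0.0748) or 2 (adjusted p = 0.130) and after a GC correction (adjusted p = 0.0739), and the value without shScram_Pre replicate 1 was 0.45 (adjusted p = 0.0151). At the MCE stage it was lost without shScram_MCE replicate 1, either shFTO_MCE library, either shScram_Diff library or either shFTO_Diff library (limma adjusted p = 0.0588 to 0.222). At the differentiation stage it was lost without either library of shScram_Diff, shFTO_Pre, shFTO_MCE or shFTO_Diff (adjusted p = 0.0640 to 0.192), with a robust estimate of the spread (adjusted p = 0.0531) and with the replicate number as a block (adjusted p = 0.0725, and 0.0547 at the MCE stage). The difference of the early steps was -0.91 without shScram_Pre replicate 1 (adjusted p = 0.00293). The shScram step was then 0.10 (adjusted p = 0.487). The call on the difference was lost without shScram_MCE replicate 1 or either library of shFTO_Pre or shFTO_MCE (adjusted p = 0.0585 to 0.112). The rise in shScram after the MCE stage was lost without shScram_MCE replicate 2 (0.53, adjusted p = 0.0563) and was 0.40 with median-ratio scaling (adjusted p = 0.0341).

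Among the binding proteins, Igfbp4, which restrains IGF action until PAPP-A cuts it, rose steeply at induction in both lines. It was at 35.6 and 77.0 TPM in shScram_Pre, 610.9 and 619.5 TPM in shScram_MCE and 801.0 and 703.6 TPM in shScram_Diff. In shFTO it was at 244.1 and 235.7 TPM, 1354 and 1372 TPM, and 1375 and 1397 TPM. Every shFTO library was above every shScram library of its stage, and most tested genes likewise did not overlap between the lines. From preadipocytes to the MCE stage Igfbp4 rose by 3.53 (SE 0.28, limma adjusted p = 3.44e-05) in shScram, where 4 of the 7 members were called, all higher, against 39.1% of all genes called and 12.2% higher. In shFTO it rose by 2.50 (SE 0.28, adjusted p = 0.000251), where 3 members were higher and 1 lower, against 28.7% of all genes called, 8.8% higher and 19.9% lower. Between the MCE and differentiation stages the values were 0.29 (adjusted p = 0.496) and 0.02 (adjusted p = 0.965), and the shScram value passed without shScram_Pre replicate 1 (adjusted p = 0.00802) or 2 (adjusted p = 0.00783).

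The knockdown difference of Igfbp4 was 2.17 (SE 0.28, limma adjusted p = 0.00145) in preadipocytes, 1.15 (SE 0.28, adjusted p = 0.0229) at the MCE stage and, in differentiated cells, 0.88 (SE 0.28, adjusted p = 0.0553). The ratio of means was 4.26, 2.22 and 1.84. The shScram_Pre libraries were themselves far apart, and without replicate 1 the preadipocyte difference was 1.63 and the early rise in shScram 2.98. The late difference passed the threshold with 4 settings other than leaving a library out (adjusted p = 0.000654 to 0.0342). It also passed without either shScram_Pre library, where the value stayed the same. The MCE call was lost without either library of shScram_MCE or shFTO_MCE (adjusted p = 0.108 to 0.118) and without the minimum on TPM (adjusted p = 0.0686). The difference between the lines in the early step was -1.03 (SE 0.40, adjusted p = 0.178), and it passed the threshold without shScram_Pre replicate 1 (-0.48, adjusted p = 0.0210), without replicate 2 (-1.57, adjusted p = 3.13e-06) and after a GC correction (-0.62, adjusted p = 0.0462).

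Igfbp7, a low-affinity member of the family found in the matrix, was the other abundant binding protein. It was at 423.5 and 515.8 TPM in shScram_Pre, 676.4 and 634.5 TPM in shScram_MCE and 702.7 and 660.3 TPM in shScram_Diff. In shFTO it was at 1458 and 1449 TPM, 1404 and 1422 TPM, and 894.2 and 935.8 TPM. The lines did not overlap at any stage, with shFTO higher. By limma the difference was 1.63 (SE 0.13, adjusted p = 0.000135), 1.11 (SE 0.13, adjusted p = 0.000609) and 0.42 (SE 0.13, adjusted p = 0.0472) at the successive stages, with ratios of means of 3.09, 2.16 and 1.34. The preadipocyte value was 1.49 without shScram_Pre replicate 1. After a GC correction it was 0.84 (adjusted p = 0.0146), below the value of 0.95 at the MCE stage (adjusted p = 0.0080).

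The differentiation-stage call of Igfbp7 held in 7 of 21 alternative settings. It was lost without any 1 of 10 libraries, those of every group except shScram_Pre (limma adjusted p = 0.0743 to 0.224), and after a GC correction (0.20, adjusted p = 0.511). It was also lost with a pseudocount of 0.1 (adjusted p = 0.0511), with no minimum on TPM (adjusted p = 0.0674) and with the replicate block (adjusted p = 0.0741).

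Over the stages Igfbp7 rose by 0.49 (SE 0.13, limma adjusted p = 0.0174) in shScram at the step to the MCE stage, a call lost without shScram_MCE replicate 1 (adjusted p = 0.0934) or 2 (adjusted p = 0.0628), with only the libraries of the step (adjusted p = 0.255) and after a GC correction (0.16, adjusted p = 0.556). It was 0.34 (adjusted p = 0.00722) without shScram_Pre replicate 1. In shFTO it fell by 0.63 (SE 0.13, adjusted p = 0.00791) at the step to the differentiation stage, a call lost without shFTO_MCE replicate 1 (adjusted p = 0.0540), shFTO_MCE replicate 2 (adjusted p = 0.0618) or shFTO_Diff replicate 1 (adjusted p = 0.0611). The difference between the lines was -0.53 (SE 0.18, adjusted p = 0.142) for the early step, 0.11 after a GC correction (adjusted p = 0.846), and -0.68 (SE 0.18, adjusted p = 0.101) for the late one. Both passed without shScram_Pre replicate 1 (-0.39 with adjusted p = 0.0418, and -0.68 with adjusted p = 0.00141) and without replicate 2 (-0.67 with adjusted p = 0.000554, and -0.68 with adjusted p = 0.00140).

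Igfbp5, a heparin-binding member that attaches to the matrix, moved in opposite directions in the lines at the late step. It was at 3.48 and 2.69 TPM in shScram_Pre, 49.4 and 44.5 TPM in shScram_MCE and 91.7 and 93.0 TPM in shScram_Diff. In shFTO it was at 8.44 and 9.42 TPM, 138.9 and 128.3 TPM, and 67.1 and 62.9 TPM. The control line thus climbed at each step, while the shFTO line was highest at the MCE stage and lay below the controls at the end, without overlap at any stage. From preadipocytes to the MCE stage Igfbp5 rose by 3.56 (SE 0.13, limma adjusted p = 5.82e-07) in shScram and 3.76 (SE 0.13, adjusted p = 6.43e-07) in shFTO, and these steps differed by 0.20 (95% interval -0.22 to 0.63, adjusted p = 0.507). Without shScram_Pre replicate 1 the shScram step was 3.70 and the difference 0.066.

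At the step to the differentiation stage Igfbp5 rose by 0.96 (SE 0.13, limma adjusted p = 0.00137) in shScram, where 2 of the 7 members were called, both higher, against 25.2% of all genes called and 20% higher. It fell by 1.03 (SE 0.13, adjusted p = 0.000850) in shFTO, where 2 members were higher and 2 lower, against 26.7% of all genes called, 20.2% higher and 6.48% lower. The late steps of the lines differed by -1.99 (SE 0.19, adjusted p = 0.00169), a difference called for 2.49% of all genes, 1.01% in this direction, and of the 7 members for Igfbp5 alone. It was past the threshold in all 21 alternative settings.

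The knockdown difference of Igfbp5 was 1.29 (SE 0.13, limma adjusted p = 0.000495) in preadipocytes, 1.49 (SE 0.13, adjusted p = 0.000130) at the MCE stage and, in differentiated cells, -0.50 (SE 0.13, adjusted p = 0.0271). Without shScram_Pre replicate 1 the preadipocyte value was 1.43. The last call was lost without either library of shScram_Diff, shFTO_MCE or shFTO_Diff (adjusted p = 0.0524 to 0.162).

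Igfbp6, which binds IGF2 in preference to IGF1, was the member lowered most at clonal expansion. It was at 7.68 and 34.1 TPM in shScram_Pre, 138.3 and 133.2 TPM in shScram_MCE and 57.0 and 44.4 TPM in shScram_Diff. In shFTO it was at 21.8 and 19.6 TPM, 16.2 and 14.9 TPM, and 35.8 and 38.0 TPM. The control line peaked at the MCE stage, where shFTO was at its lowest, and the lines overlapped only in preadipocytes, since the shScram_Pre libraries lay on both sides of shFTO. At the MCE stage the shFTO mean was 11.5% of the shScram mean, a difference of -3.05 (SE 0.50, limma adjusted p = 0.00342). The differences were 0.31 (SE 0.50, adjusted p = 0.652) in preadipocytes and -0.44 (SE 0.50, adjusted p = 0.594) at the differentiation stage.

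The value of Igfbp6 in preadipocytes depended on which control library was kept. Without shScram_Pre replicate 1 the difference was -0.70, and without replicate 2 it was 1.32. The late difference passed with only its own libraries (limma adjusted p = 0.0315) and after a GC correction (-0.73, adjusted p = 0.0266). It also passed without either shScram_Pre library.

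From preadipocytes to the MCE stage Igfbp6 rose in shScram by 2.97 (SE 0.50, limma adjusted p = 0.00209), and by 1.96 without shScram_Pre replicate 1. With only the libraries of the step the call was lost (adjusted p = 0.105). In shFTO the step was -0.39 (SE 0.50, adjusted p = 0.620), which passed without shScram_Pre replicate 1 (adjusted p = 0.0158) or 2 (adjusted p = 0.0166) and with only its own libraries (adjusted p = 0.0290). The steps differed by -3.36 (SE 0.70, adjusted p = 0.0313), a difference that 2 of the 7 members, Igfbp6 and Igf2r, passed, against 5.11% of all genes and 2.59% in this direction. Without shScram_Pre replicate 1 this difference was -2.35, while leaving out any 1 of the 10 libraries outside shScram_Pre ended the call. It was also lost without the minimum on TPM (adjusted p = 0.0853) and with only the libraries of these groups (adjusted p = 0.119). At the later step Igfbp6 gave -1.41 (SE 0.50, adjusted p = 0.0686) in shScram and 1.20 (SE 0.50, adjusted p = 0.111) in shFTO. Both passed without shScram_Pre replicate 1 or replicate 2, which do not enter these means, so only the shared spread changed. The difference of these steps was 2.61 (SE 0.70, adjusted p = 0.102), and it too passed without either of those libraries.

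Igfbp3, the main carrier of IGFs in blood plasma, was present in the shFTO line at every stage and not at the differentiation stage alone. It was at 2.02 and 1.25 TPM in shFTO_Pre, 13.9 and 14.5 TPM in shFTO_MCE and 29.9 and 29.5 TPM in shFTO_Diff. In shScram it was at 0.129 and 0.0458 TPM before induction, at 0 and 0.0838 TPM in shScram_MCE, and listed at 0 in both shScram_Diff libraries. The shFTO means rose from 1.64 to 14.2 and 29.7 TPM over the stages. These values are part of what chose Igfbp3 and were not tested.

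Igfbp2, a member that is widely made by white preadipocytes, was near or at 0 throughout. It was listed at 0 in all 6 shFTO libraries and in both shScram_Pre libraries, at 0.141 and 0.239 TPM in shScram_MCE, and at 0.453 and 0 TPM in shScram_Diff. It could not be tested, and at such levels no difference between the lines can be read. Family members outside the set were also near 0. Igfbp1 was at 0.215 TPM or less, Igfbpl1 at 0 in every library, and Igfals, which joins IGFs and binding proteins into a larger complex in blood, at 1.18 TPM or less.

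Summed over the 6 binding proteins, the shFTO line held more transcript than the shScram line at each stage. The sum was 470.4 and 629.7 TPM in shScram_Pre, 1475 and 1432 TPM in shScram_MCE and 1653 and 1501 TPM in shScram_Diff. In shFTO it was 1734 and 1715 TPM, 2928 and 2951 TPM, and 2402 and 2464 TPM. The lines did not overlap at any stage. Igfbp7 made up 90.0% and 81.9% of the sum in shScram_Pre and 84.1% and 84.5% in shFTO_Pre. By the differentiation stage its share was 42.5% and 44.0% in shScram and 37.2% and 38.0% in shFTO, with Igfbp4 at 48.5% and 46.9% and at 57.3% and 56.7%. The ratio of the binding-protein sum to the sum of Igf1 and Igf2 was 106.4 and 197.6 in shScram_Pre and 195.9 and 213.5 in shFTO_Pre, where the lines overlapped. It was 325.4 and 380.7 in shScram_MCE against 201.0 and 200.4 in shFTO_MCE, and 230.2 and 250.6 in shScram_Diff against 47.2 and 45.5 in shFTO_Diff, so at both later stages the shFTO ratios were the lower ones. No test was made on these sums, whose parts were chosen together. Igfbp7, of low affinity, counts in them like the other binding proteins. In shFTO_Diff Igf2 made up 73.7% and 72.8% of the ligand sum, and its values are uncertain through overlapping genes. The ratios are of RNA and do not measure bound ligand.

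**Figure D3:**
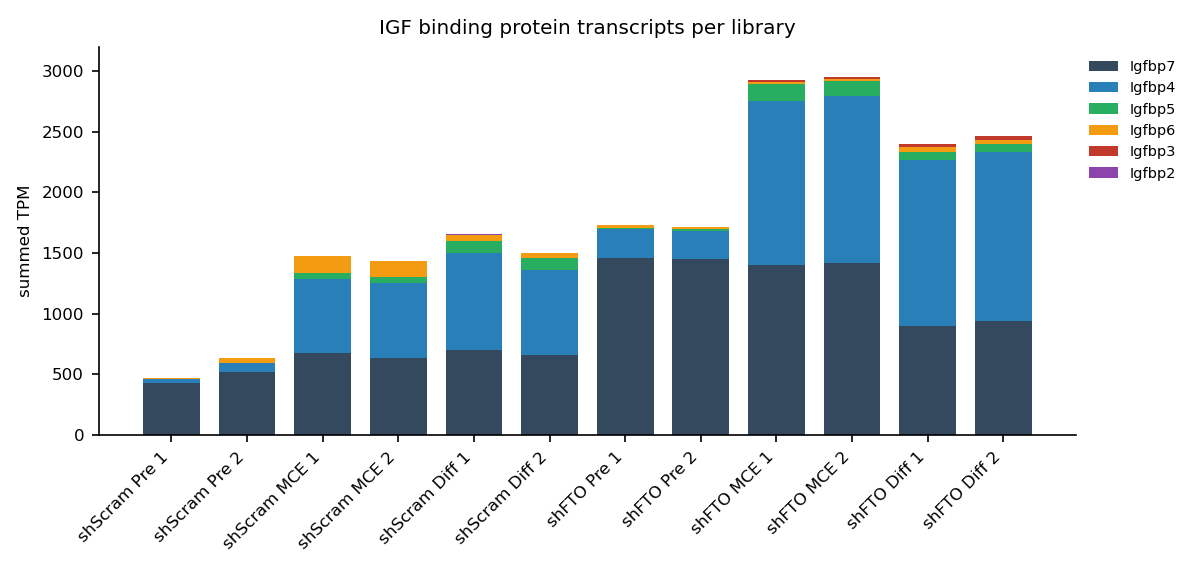
Summed TPM of the 6 binding proteins in each of the 12 libraries, stacked by gene from 0. The shFTO bars reach 1715 to 2951 TPM and the shScram bars 470.4 to 1653 TPM, and Igfbp7 and Igfbp4 fill most of each bar.

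Other genes of the pathway were taken from a list of 57, also chosen with earlier results known, of which 47 passed the minimum on TPM. By limma, 15 were higher and 4 lower in shFTO in preadipocytes, 10 higher and 2 lower at the MCE stage, and later 8 higher and 4 lower, with 28, 35 and 35 not called. The shares of all genes called were 28.2%, 17.8% and 21.2%. The list's median difference was 0.34, 0.22 and 0.11. Single libraries moved these counts. Without shScram_Pre replicate 2 the preadipocyte count was 37, and without shFTO_Pre replicate 1 or 2 it was 4 or 5.

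**Figure D4:**
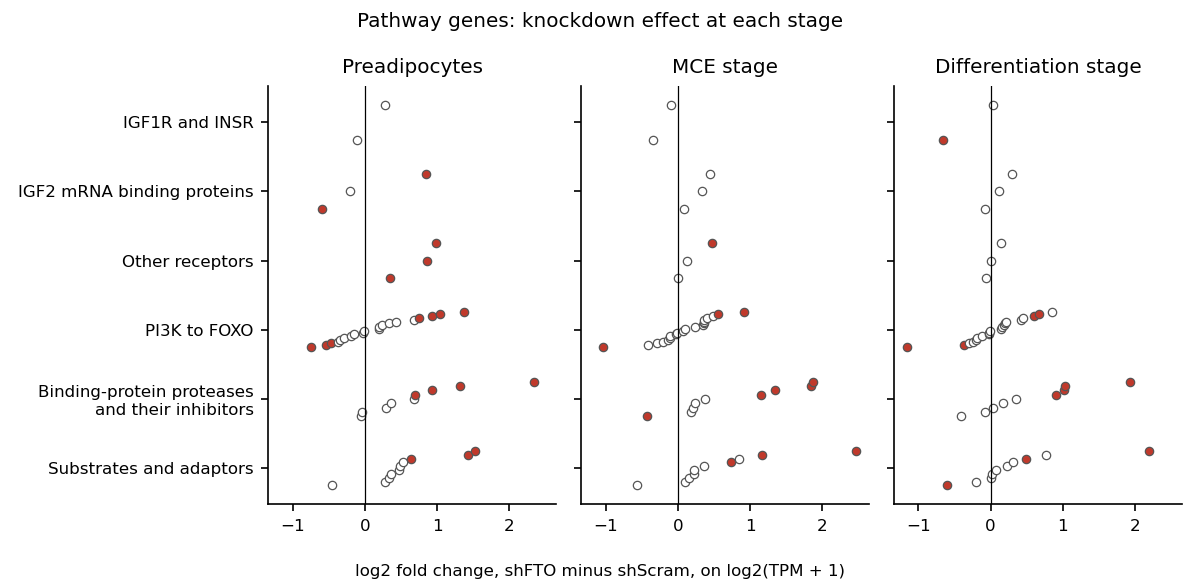
Difference of shFTO from shScram (log2 of TPM + 1) for the 47 other pathway genes by sublist at each stage, with filled points for an adjusted p under 0.05. Pappa and Grb14 stand highest at the differentiation stage and Pik3r1 lowest.

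Of the signalling receptors, Igf1r was lower in shFTO at the differentiation stage and Insr passed no test. Igf1r, the main receptor of both ligands, was at 12.6 and 16.1 TPM in shScram_Pre, 22.5 and 21.7 TPM in shScram_MCE and 41.8 and 40.9 TPM in shScram_Diff. In shFTO it was at 16.2 and 18.8 TPM, 21.6 and 20.0 TPM, and 25.2 and 26.7 TPM. The lines did not overlap at any stage, with shFTO higher in preadipocytes and lower later, but only at the differentiation stage did the difference pass the test. It was -0.65 (SE 0.14, limma adjusted p = 0.0120), beside 0.28 (adjusted p = 0.162) and -0.09 (adjusted p = 0.752) at the earlier stages. The call was lost without any 1 library of shScram_Diff or shFTO_Diff (adjusted p = 0.0603 to 0.0830). Insr, the insulin receptor, was at 13.8 to 27.3 TPM in all libraries, and its differences were -0.11 (adjusted p = 0.514), -0.34 (adjusted p = 0.110) and 0.04 (adjusted p = 0.874).

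Of 9 tested proteases and protease inhibitors that act on binding proteins, 4 were higher in shFTO at each stage and 1 was lower, at the MCE stage. Of the whole table of genes, 15.9%, 10.5% and 11.9% were called higher at the successive stages, and 7.26% lower at the MCE stage. The 4 were not the same genes at each stage, since only Pappa and Stc1 passed at all 3 in the fit of all 12 libraries. Pappa, the protease that cuts Igfbp4 and Igfbp5, had a mean of 1.49 ± 0.0796 TPM (SD, n = 2) in shScram_Pre and 11.7 ± 2.78 TPM in shFTO_Pre, a difference of 2.34 (limma adjusted p = 6.82e-05). It was 7.84 against 30.7 TPM at the MCE stage (1.84, adjusted p = 0.000125) and later 5.28 against 22.9 TPM (1.93, adjusted p = 7.31e-05). Stc1, a stanniocalcin that inhibits PAPP-A, was higher at the MCE stage, at 21.4 against 5.22 TPM (1.87, adjusted p = 0.000324), as well as in preadipocytes (0.70, adjusted p = 0.0306) and in differentiated cells (1.01, adjusted p = 0.00663). Htra1, a serine protease, was higher at the differentiation stage (1.03, adjusted p = 0.0177). Adam9, a membrane metalloprotease, was the lower one at the MCE stage (-0.42, adjusted p = 0.0323). The Htra1 call was lost without either shFTO_Diff library or shScram_Diff replicate 1 (adjusted p = 0.0571 to 0.124), with a pseudocount of 0.1 (adjusted p = 0.0806) and after a GC correction (adjusted p = 0.0954). The Adam9 call was lost without any 1 library of the MCE or Diff groups (adjusted p = 0.0587 to 0.202) and with the replicate block (adjusted p = 0.0555). The preadipocyte value of Pappa was 2.37 without shScram_Pre replicate 1. When only the 4 preadipocyte libraries were fitted, no gene passed there, Pappa and Stc1 included. The calls of Stc1 outside the MCE stage were not followed singly through the alternatives.

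Among receptor substrates and adaptors, Grb14, which inhibits insulin receptor signalling, was higher in shFTO at all stages. Its means were 67.7 against 23.0 TPM in preadipocytes (1.52, limma adjusted p = 0.00114), 32.3 against 5.11 TPM at the MCE stage (2.47, adjusted p = 6.23e-05) and later 58.9 against 12.1 TPM (2.19, adjusted p = 8.24e-05). Pik3r1, the regulatory subunit of PI3K, was lower in shFTO at the MCE stage, at 57.8 against 119.1 TPM (-1.03, adjusted p = 0.00621), and at the differentiation stage, at 77.5 against 173.6 TPM (-1.15, adjusted p = 0.00308). Irs1, the docking protein of both receptors, was lower at the differentiation stage (-0.61, adjusted p = 0.0117). In preadipocytes Ptpn1, a phosphatase of the insulin receptor, was higher (1.43, adjusted p = 0.00933). Rictor, a subunit of mTORC2 (-0.74, adjusted p = 0.0277), Igf2bp3, an RNA-binding protein named for Igf2 mRNA (-0.59, adjusted p = 0.0284), and Pik3r3, another PI3K subunit (-0.54, adjusted p = 0.0464), were lower there. At the MCE stage Pik3r3 was called the other way, higher in shFTO (0.91, adjusted p = 0.00697).

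Several of these calls rest on single libraries. Without shScram_Pre replicate 1 the preadipocyte values by limma were 1.60 for Grb14 (adjusted p = 0.000334), 0.88 for Ptpn1 (adjusted p = 0.000389), -0.48 for Rictor (adjusted p = 0.0589), -0.36 for Igf2bp3 (adjusted p = 0.0371) and -0.28 for Pik3r3, which then did not pass. Pik3r3 also lost its preadipocyte call without any 1 library other than shScram_Pre replicate 2. With no filter on low values Rictor (adjusted p = 0.0576), Igf2bp3 (adjusted p = 0.0521) and Pik3r3 (adjusted p = 0.0792) did not pass. Leaving out either shFTO_Pre library ended the calls of Rictor (adjusted p = 0.0538 and 0.167) and Igf2bp3 (adjusted p = 0.0640 and 0.163), as did either shFTO_MCE library for Igf2bp3 (adjusted p = 0.0522). The Ptpn1 call ended without shFTO_Pre replicate 1 (adjusted p = 0.0674), and with only the 4 preadipocyte libraries none of the named calls there passed. Later, Pik3r1 lost its MCE call without shScram_MCE replicate 1 (adjusted p = 0.0547) or shFTO_MCE replicate 2 (adjusted p = 0.0626). Irs1 lost its call without any 1 library of shScram_Diff or shFTO_Diff (adjusted p = 0.0569 to 0.0848).

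Cell type markers moved with the groups. Of 8 adipocyte markers, the summed level was 130.2 to 192.0 TPM in shScram_Pre, 360.8 and 361.3 TPM in shScram_MCE and 1414 and 1428 TPM in shScram_Diff. In shFTO the sum was 265.9 and 297.6 TPM, 261.2 and 270.8 TPM, and 451.0 and 412.5 TPM. Much of the shFTO sum was Lpl, lipoprotein lipase, at 247.2 and 281.0 TPM in shFTO_Pre, 195.9 and 198.9 TPM in shFTO_MCE and 282.5 and 268.6 TPM in shFTO_Diff, and before differentiation it was higher than in shScram (111.8 and 174.0 TPM, then 77.1 and 92.4 TPM). Fabp4, a fatty acid carrier, was at 44.1 and 52.7 TPM in shFTO_MCE against 210.8 and 231.0 TPM in shScram_MCE. The sum of 4 myofibroblast and smooth muscle markers, mostly Acta2, was 310.6 and 461.9 TPM in shScram_Pre and 1147 and 1058 TPM in shFTO_Pre, and at the later stages at most 32.8 TPM in shScram and at most 188.4 TPM in shFTO. The part of either in the values of Igf1, Igf2, Igfbp3, Igfbp4 and Igfbp7 was not tested. Macrophage (at most 4.01 TPM, Adgre1 at 0), endothelial (at most 1.15 TPM, Kdr at 0) and epithelial markers (at most 1.12 TPM), 4 genes each, were near 0 in all libraries.

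As a description over the 12 libraries, which share stages and lines, the genes with the pattern most like each member were named by Pearson's r of log2(TPM + 1) among genes with a mean of at least 5 TPM. For Igf1 the nearest were Pcdhb9 (r = 0.979), Plod2 and Pgm3, and for Igf2 they were Nid2 (r = 0.939), Fmo2 and Dkk3. Igf2r was nearest to Ppp1r12b (r = 0.967), Mob3c and Pdk2. Among the binding proteins, Igfbp3 went with Pfkfb3 (r = 0.977), Col23a1 and Dio2, Igfbp4 with Vegfa (r = 0.978) and Fignl2, and Igfbp5 with Parm1 (r = 0.993), Adam12 and Lrpap1. Igfbp6 went with Rps18 (r = 0.970), Eva1c and Aqp1, and Igfbp7 with Dhrs3 (r = 0.974), Pmepa1 and Alg2. For Igfbp2, near 0 everywhere, the highest was Gm10036 (r = 0.813), followed by Wdr27 and Ndufb4.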

How the data were processed

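RNA-seq of 12 libraries in 6 groups of 2 was used. Reads had been trimmed (Trim Galore 0.6.5) and aligned by HISAT2 2.1.0 on the GRCm38 build, and the TPM values that the authors deposited came from StringTie 2.1.4 with Ensembl genes. They used DESeq2 1.30.1 for their own comparisons, which was not repeated, since TPM values are not counts. TPM keeps no depth, so precision is limited by 2 libraries per group. Between 20853 and 24018 genes were above 0 in a library. Of 3238 genes with a median of at least 50 TPM, 3 were listed at 0 in some library.

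Libraries were grouped by title. log2(TPM + 1) of 15968 genes was fitted with limma 3.58.1 (R 4.3.3, eBayes with trend, a mean per group, 6 residual degrees of freedom), and interaction contrasts tested differences between steps. The script was checked on simulated data. Coordinates came from GENCODE M21, and other steps used Python 3.11.15 with pandas 2.3.3. The members, the pathway list and the markers were chosen with earlier results of these data known. Named pathway genes were the receptors and other binding proteins, plus the 3 highest and 3 lowest called at each stage. For each member the 3 genes of highest r were named, except 1 gene that is not reported here. The alternatives were a pseudocount of 0.1, no minimum, a mean of at least 5 TPM, median-ratio, quantile and GC scaling (GC known for 15928 genes), only the libraries of a contrast, a robust spread, the replicate number as a block and each library left out. Same-numbered libraries deviated together with r from -0.29 to 0.17 over pairs of groups, so numbers were not taken as pairs.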

Additional observations from a re-analysis of the deposited data

Results flagged for a closer look

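For 3 members the step between stages differed between the lines by the interaction test of limma. Igfbp5 rose in shScram and fell in shFTO between the MCE and differentiation stages, a difference of -1.99 (SE 0.19, adjusted p = 0.00169). From preadipocytes to the MCE stage, Igf2r fell in shFTO by 0.81 while shScram gave 0.12, and the steps differed by -0.92 (SE 0.17, adjusted p = 0.0208). Over the same step Igfbp6 differed by -3.36 (SE 0.70, adjusted p = 0.0313), with the shScram_Pre libraries at 7.68 and 34.1 TPM. Without shScram_Pre replicate 1 that difference was -2.35. Of 21 alternative settings, the Igfbp5 call held in 21, the Igf2r call in 15 and the Igfbp6 call in 9. The interaction was called for 5.11% of all genes at the early step and for 2.49% at the late one.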

How the results depend on the processing

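Depth is unknown, and 2 libraries per group with a shared spread make many calls depend on 1 library. Of 1323 comparisons of a single gene's result with an alternative, 1160 kept direction and side of the threshold, 84 lost the call, 57 gained one and 22 changed sign. Of 254 comparisons of counts, 192 stayed within 1.5 times. The calls of Igf1, Igfbp5, Igfbp6 and Igfbp7 at the MCE stage, of Igf1 at the differentiation stage and of the Igfbp5 late-step difference held in all 21 settings. So did that of Igf2 at the differentiation stage. It is description rather than support, since Igf2 passed the minimum on TPM through shFTO libraries. Other scaling moved the median of all genes by up to -0.13 for the knockdown in preadipocytes and between -0.24 and 0.21 for the stage steps. The cause was not tested for any change below.

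With only the libraries of a contrast, the members called were 0 for the knockdown in preadipocytes (of all genes 2790 had an unadjusted limma p under 0.05), 2 for the early step in shScram, and 0 and 4 for the early and late difference between the lines, and the pathway calls were 0, 27 and 21 at the successive stages. With no minimum on TPM, 1 member was called for the early difference and 12 pathway genes in preadipocytes. After a GC correction, 2 members were called for the late difference and 20 pathway genes at the MCE stage. With the replicate number as a block, 3 members were called for the knockdown at the differentiation stage, where the calls of Igf2r and Igfbp7 were lost, and Igf2r lost its call at the MCE stage. The block changed no other call of a member. The Igfbp3 mean in shFTO_Diff was 27.7 TPM with median-ratio scaling and 28.2 TPM with quantile normalization.

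Leaving out each library in turn gave 4 to 6 members called for the knockdown in preadipocytes, 4 to 7 for that at the MCE stage and 2 to 7 for the last stage. The stage steps gave 3 to 4 (early) and 1 to 5 (late) in shScram, and 3 to 5 (early) and 3 to 5 (late) in shFTO. The differences between the lines gave 0 to 5 (early) and 1 to 4 (late). Pathway calls ranged from 4 to 37, 6 to 28 and 4 to 21. At the differentiation stage the count was 2 or 3 without any 1 library of shScram_Diff, shFTO_Pre, shFTO_MCE or shFTO_Diff. The late shScram count was 5 without either shScram_Pre library and 1 without shScram_MCE replicate 2. The early difference gave 4 and 5 without shScram_Pre replicates 1 and 2, and 0 or 1 without any other library. The late difference gave 4 without either shScram_Pre library and 2 without either shFTO_Pre library. Pathway calls in preadipocytes were 37 without shScram_Pre replicate 2, and 4 to 12 without any 1 library of shFTO or shScram_Diff. At the MCE stage they were 28 without either shScram_Pre library and 6 or 7 without any MCE library. At the differentiation stage they were 21 without either shScram_Pre library and 4 to 6 without any Diff library.

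Changes of sign were in values that had not passed the threshold. The knockdown effect on Igfbp6 in preadipocytes was -0.59 after a GC correction and -0.70 to 1.32 with 1 library left out. In shScram, leaving out 1 library gave -0.088 to 0.28 for the early step of Igf1 (0.78 after GC correction), -0.013 to 0.25 for that of Igf2r and -0.0088 to 1.20 for the late step of Igf2. After GC correction the early step of Igf2 was -0.15 and the late steps of Igf1 and Igfbp7 -0.016 and -0.12, and with median-ratio scaling that of Igfbp7 was -0.20. In shFTO, the early step of Igf2 was -0.15 to 1.62 with 1 library left out, and that of Igfbp7 was 0.18 with median-ratio scaling and 0.27 after GC correction. The late step of Igf1 was -0.048 with quantile normalization and -0.19 after GC correction, and that of Igfbp4 -0.17 with median-ratio scaling and -0.18 after GC correction. The early difference between the lines was -0.19 to 1.58 for Igf2 with 1 library left out, -0.0033 for Igfbp5 with a pseudocount of 0.1, and 0.11 for Igfbp7 after GC correction. The late difference for Igf2r was -0.077 to 0.19 with 1 library left out.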
